A study of Homo sapiens with 12 samples.

Results

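Methyl-CpG binding proteins read DNA methylation: they bind methylated cytosine in a CpG and bring in complexes that close chromatin or repair the base. The 7 genes described here are MBD1, MBD2, MBD3 and MBD4, which share the methyl-CpG binding domain, and ZBTB4, ZBTB33 and ZBTB38, whose products bind methylated DNA through zinc fingers. They were taken by name, as every probe whose gene name in the scanner files was 1 of the 7, which gave 7 of the 36337 gene names on the array and 11 of its 50599 distinct probes. MBD1 had 4 probes, MBD2 had 2 and each of the others had 1. A gene was represented by its brightest probe, and signals were never compared between probes.

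The samples were clones of Colo320DM, a human colorectal cancer cell line, each grown from an isolated colony after transfection and G418 selection. The 3 control clones carried the pcDNA6.2-GW/EmGFP-miR-neg plasmid, and the 3 TET1 knockdown clones carried an EmGFP-miR vector with an artificial microRNA against TET1, the enzyme that oxidizes 5-methylcytosine. All 6 clones thus shared a selected EmGFP vector, and no untransfected cells were analysed here. Each clone was analysed after mock treatment and after 72 h with 5-aza-dC (5-aza-2'-deoxycytidine) at 1 µM, a cytidine analog that traps DNA methyltransferases and lowers methylation as cells divide. This gave 4 groups of 3 arrays and 12 arrays in all. Replicates within a group are different clones, and knockdown clones 1 and 2 carried a different microRNA against TET1 from knockdown clone 3.

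The readers differ in what they recruit. MBD2 and MBD3 are alternative subunits of the NuRD deacetylase and remodelling complex, and mammalian MBD3 has little preference for methylated over unmethylated CpG. MBD1 recruits the H3K9 methyltransferase SETDB1 through ATF7IP, and MBD4 is a DNA glycosylase that removes thymine from G:T mismatches at CpG. ZBTB33 (Kaiso) works with the NCOR1 corepressor and its partner CTNND1, and ZBTB4 and ZBTB38 are Kaiso-like factors.

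MBD3 was the reader called after 5-aza-dC and ZBTB4 the reader without overlap between clone types, so their sequences are shown first. Both promoters are dense in CpG. In the RefSeq promoter table (GRCh38.p14), all 7 genes had an entry, ZBTB38 with 10 start sites and the others with 1. The 250 bases before the start of MBD3 and of ZBTB4 are printed 5′ to 3′ on the gene's strand, with every CpG in capitals, because CpG is where DNA methylation sits and what the readers bind.
MBD3, chr19:1592866-1593115, minus strand: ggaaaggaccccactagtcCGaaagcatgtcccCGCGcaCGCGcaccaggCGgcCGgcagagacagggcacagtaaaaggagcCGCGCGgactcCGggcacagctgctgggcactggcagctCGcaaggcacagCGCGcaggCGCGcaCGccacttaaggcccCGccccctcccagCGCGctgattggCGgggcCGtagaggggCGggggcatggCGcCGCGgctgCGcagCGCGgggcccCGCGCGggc
ZBTB4, chr17:7484250-7484499, minus strand: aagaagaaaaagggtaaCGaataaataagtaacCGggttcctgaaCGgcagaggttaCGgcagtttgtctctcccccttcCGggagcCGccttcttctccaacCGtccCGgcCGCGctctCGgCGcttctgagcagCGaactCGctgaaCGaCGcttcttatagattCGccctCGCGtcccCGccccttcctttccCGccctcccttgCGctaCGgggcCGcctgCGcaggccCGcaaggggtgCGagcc
Over the full 300 bases of an entry, which reach 50 past the start, MBD3 held 40 CpG and ZBTB4 held 31. The median of all 35116 entries was 14 and the upper quartile 28, and 92.4% of entries held fewer CpG than MBD3. MBD1 held 27, MBD2 32, MBD4 29 and ZBTB33 33. The methylation of these promoters was not analysed here. The ZBTB33 recognition sequence TCCTGCNA, searched on both strands, was in none of the 6 promoters with 1 start site and in 1 of the 10 entries of ZBTB38, while 4.69% of all entries held it.

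The signal itself came from 60-base probes, placed by the files on hg19. The first 30 bases of the probes for MBD3, ZBTB4 and both MBD2 transcripts are given to show what was measured, with no base in capitals.
MBD3, chr19:1576867-1576926: ccgcatggaggcagtgggctggcagcttcc
ZBTB4, chr17:7362946-7363005: gtatttgagctggggaatttgaatattgtg
MBD2 probe 1, chr18:51681393-51681452: gaccctaagatgaagctgagcttttgatgc
MBD2 probe 2, chr18:51729113-51729172: tgcttttgcacacggtaggtacttaatatt
All of these probes lie on the minus strand, and MBD2 probe 2 was designed to transcript variant 2, probe 1 to variant 1. The exon or UTR under each probe was not looked up, because no hg19 annotation was used here.

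Signals are given as log2 of the processed signal minus the array's own 75th percentile, so 0 is a probe as bright as that percentile and 1 unit is a 2-fold difference. The 75th percentile ranged from 240.7 to 359 signal units over the 12 arrays, and 45.74% to 52.88% of probes were well above background. Precision is set by the 3 clones per group. The arrays lay on 2 slides, which overlap only in part with the groups. Slide 1 held control mock clones 1 and 2, all 3 knockdown mock clones, and 5-aza-dC-treated knockdown clones 1 and 3. Slide 2 held control mock clone 3, all 3 treated control clones, and treated knockdown clone 2. TET1 was lower in the mock knockdown clones by all 3 of its probes, by 0.93 to 1.35 on the log2 scale (limma, adjusted p 0.243 to 0.395), without overlap for 2 of them, and none was called. In treated clones the differences were -0.67 to -1.75, again without overlap for 2 probes and not called. Of all probes, 21.3% in mock and 24.9% in treated clones did not overlap. The brightest TET1 probe was the one that overlapped in treated clones, at 4.31 in knockdown clone 2 and 4.06 to 4.42 in control clones. Within slide 2 that probe differed by 0.09 in treated clones, against -1.13 and -1.06 for the other probes. Of the 6 epithelial markers, CDX2, KRT18 and KRT8 were well above background on 12 arrays, EPCAM on 10, VIL1 on 1 and CDH1 on none. Among markers of other cell types, PTPRC and COL1A1 were above background on 12 arrays, COL3A1 and ENO2 on 11, VWF on 7, CHGA and CD3E on 4, SYP on 3, DCN on 1 and PECAM1 on none. Some of these moved with 5-aza-dC, and over all clones EPCAM, ENO2, COL1A1 and CHGA were called higher and VWF lower. In control clones the group mean went from -2.18 to 1.13 for EPCAM, from -1.48 to 2.03 for ENO2, from -2.53 to -0.60 for COL1A1, from -5.18 to 0.83 for CHGA and from -3.87 to -6.16 for VWF. In knockdown clones it went from -3.56 to 0.65 for EPCAM, from -1.59 to 1.55 for ENO2, from -2.40 to -0.35 for COL1A1 and from -3.27 to -4.21 for VWF, while CHGA was above background on no array. The part of these markers in the results was not tested.

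MBD1, MBD2, MBD3, MBD4, ZBTB4 and ZBTB33 were well above background on all 12 arrays. ZBTB38 was above background on 1 array, treated knockdown clone 3, and was not tested. The group means of MBD2 ran from 3.81 to 4.13, of ZBTB33 from 2.38 to 2.82, of MBD4 from 2.08 to 2.29, of MBD1 from 1.61 to 1.95 and of ZBTB4 from 0.35 to 0.88. MBD3 stood apart in its spread, with group means from 1.21 to 2.75.

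**Figure D1:**
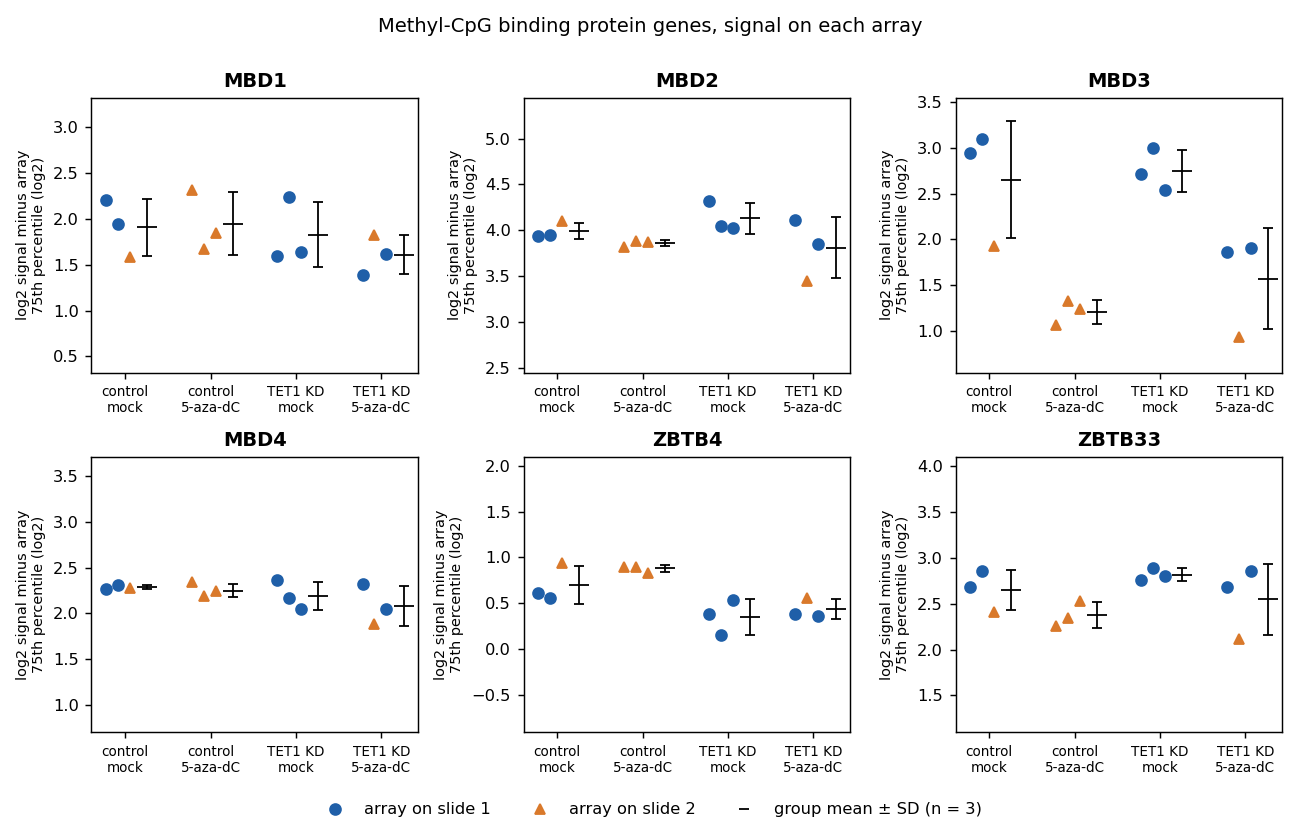
Log2 signal of the 6 detected genes on each array, relative to the array's 75th percentile, by group; points are clones, shapes and colours mark the slide, and bars are group mean ± SD (n = 3). Every panel spans 3 log2 units; MBD3 lies at 1.93 or above in mock clones and at 1.91 or below in treated clones, and ZBTB4 is lower in knockdown than in control clones under both treatments.

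MBD3 was lower after 5-aza-dC in all 6 clones, and it was the reader with the largest change. In the control clones 1, 2 and 3, its mock values were 2.94, 3.10 and 1.93, and after treatment they were 1.07, 1.33 and 1.24. In the knockdown clones 1, 2 and 3, its mock values were 2.71, 3.00 and 2.54, and after treatment they were 1.86, 0.93 and 1.91. Treated and mock values did not overlap in either clone type, as for 32.4% of all probes in control and 19.2% in knockdown clones. Over all clones together they barely missed overlap. The lowest mock value, 1.93 in control clone 3, lay on slide 2, and the highest treated value, 1.91 in knockdown clone 3, on slide 1. The share of all probes without overlap over all clones was not counted. In the fit over all 12 arrays MBD3 fell to 40.3% of its mock level (log2 change -1.31, SE 0.24, n = 6 clones; limma, adjusted p = 0.0063). That fit did not pair the mock and treated arrays of a clone, and with clone as a block the adjusted p was 0.0207 (limma). The exact sign-flip permutation test over the 6 clones gave 0.0312, which is the smallest p it can give. RNA was measured in bulk, so less MBD3 RNA per cell and fewer cells with it cannot be told apart. MBD3 was the single reader called among the 6 tested, where 13.2% of all 27287 probes tested were called. Without control clone 1 the change was -1.20 and the call was lost (limma, adjusted p = 0.0522), and without any other clone the adjusted p was between 0.0043 and 0.0411.

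The size of the MBD3 decrease moved with the slide. The clones whose mock and treated arrays sat on 1 slide, knockdown clones 1 and 3 and control clone 3, decreased by 0.85, 0.63 and 0.69. The clones whose arrays sat on different slides, control clones 1 and 2 and knockdown clone 2, decreased by 1.87, 1.76 and 2.07. No value of one set lay within the range of the other, though every clone went down. Arrays of 1 group also differed by slide: mock control clone 3 on slide 2 was 1.09 below the mean of the pair on slide 1, and treated knockdown clone 2 was 0.95 below the pair on slide 1. With slide as a block the MBD3 change was -0.80 (SE 0.13, 57.4% of mock) and was called (limma, adjusted p = 0.00592), where 9.10% of all probes were called. Within slide 2 the 3 treated control clones were on average 0.71 below mock control clone 3, and within slide 1 treated knockdown clones 1 and 3 were 0.87 below the 3 mock ones. What part of the difference belongs to the slide was not tested further.

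**Figure D2:**
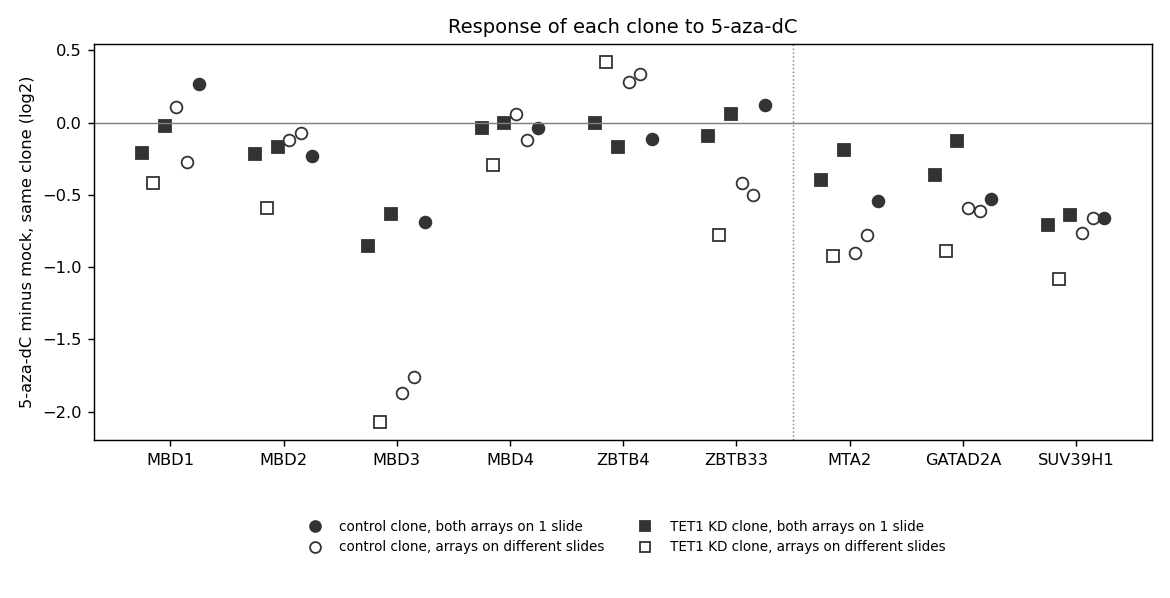
Log2 signal after 5-aza-dC minus log2 signal after mock treatment in the same clone, for the 6 detected readers and, right of the dotted line, MTA2, GATAD2A and SUV39H1. Filled symbols are clones with both arrays on 1 slide and open symbols clones with arrays on different slides; for MBD3 the filled symbols lie from -0.85 to -0.63 and the open ones from -2.07 to -1.76.

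Fitted within each clone type, the MBD3 change missed the threshold. It was -1.44 (SE 0.33) in control clones, or 36.8% of mock (limma, adjusted p = 0.0624), in a comparison where 5.22% of 24641 probes were called. It was -1.18 (SE 0.32) in knockdown clones, or 44.0% of mock (limma, adjusted p = 0.243), where 2.04% of 25390 probes were called. The exact permutation p was 0.1 in each, the smallest that 3 against 3 allows. Without control clone 3, the only mock control array on slide 2, the change in control clones was -1.82 and passed (limma, adjusted p = 0.0186), as did 22.8% of all 23408 probes. In that fit the mock arrays lay on slide 1 and the treated ones on slide 2, so treatment and slide cannot be told apart. Slide as a block put the change at -0.71 in control clones and -0.87 in knockdown clones, neither of them called. The difference between the clone types was 0.26 (SE 0.48; limma, adjusted p = 1), and 0.0366% of probes were called in that test of the interaction, none of them a reader.

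MBD2, the reader that takes MBD3's place in NuRD, was lower after treatment in all 6 clones by a smaller amount. Its mock values in control clones 1 to 3 were 3.94, 3.95 and 4.10 and its treated values 3.82, 3.88 and 3.87, with no overlap. In knockdown clones 1 to 3 the mock values were 4.32, 4.04 and 4.02 and the treated values 4.11, 3.45 and 3.85, which overlapped. The change over all clones was -0.23 (SE 0.13), or 85.2% of mock, and was not called (limma, adjusted p = 0.258). Of the 6 readers, 2 were lower in every clone, against 17.0% of all probes tested. In control clones 2 of the 6, MBD2 and MBD3, did not overlap between treatments, against 32.4% of probes, and in knockdown clones 1 of the 6, MBD3, did not overlap, against 19.2%.

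None of the other readers was called after 5-aza-dC. ZBTB33, the Kaiso gene, had mock values of 2.68, 2.86 and 2.41 in control clones 1 to 3 and treated values of 2.26, 2.35 and 2.53. In the knockdown clones 1 to 3 its mock values were 2.76, 2.89 and 2.80, and its treated values 2.68, 2.12 and 2.86. The decreases of 0.42, 0.50 and 0.78 were in the clones whose arrays lay on different slides, and the clones on 1 slide changed by -0.09 to 0.12. The fitted change was -0.27 (SE 0.15; limma, adjusted p = 0.246) without slide and -0.02 (SE 0.12) with it. The values of ZBTB33 thus overlapped between treatments in both clone types.

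MBD4, the glycosylase, had the narrowest range of the 6. In control clones 1 to 3 it was 2.27, 2.31 and 2.28 after mock treatment and 2.34, 2.19 and 2.24 after 5-aza-dC, and in knockdown clones 2.36, 2.17 and 2.05 and then 2.32, 1.88 and 2.05. All 12 arrays lay between 1.88 and 2.36, and the fitted difference between treatments was -0.07 (SE 0.12, limma, adjusted p = 0.695). MBD1 was 2.21, 1.94 and 1.58 in mock control clones 1 to 3 and 2.32, 1.67 and 1.85 in treated ones. In knockdown clones it was 1.60, 2.24 and 1.64 and then 1.39, 1.82 and 1.62. Clones of 1 group differed more than the treatments did, and the fitted difference was -0.09 (SE 0.18, limma, adjusted p = 0.762). That of ZBTB4 was 0.13 (SE 0.12, limma, adjusted p = 0.491), and -0.01 with slide as a block.

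The size of the readers' changes over all clones, and the direction of ZBTB4, also depended on how an array was scaled. Centring on each array's median in place of the 75th percentile moved the median of all 27287 changes from -0.05 to -0.29. The share of calls that were higher after treatment went from 55.1% to 19.9%, and it was 45.0% after quantile normalisation. On the median scale MBD3 changed by -1.55, MBD2 by -0.47 and ZBTB33 by -0.51, all called, and ZBTB4 turned to -0.11. On that scale 31.3% of all 27287 probes were called, against 13.2% on the 75th percentile. MBD3 was lower than the median of all probes on both scales. Changing the scale only subtracts 1 constant per array, so this distance from the median cannot differ between the scales and is no support.

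**Figure D3:**
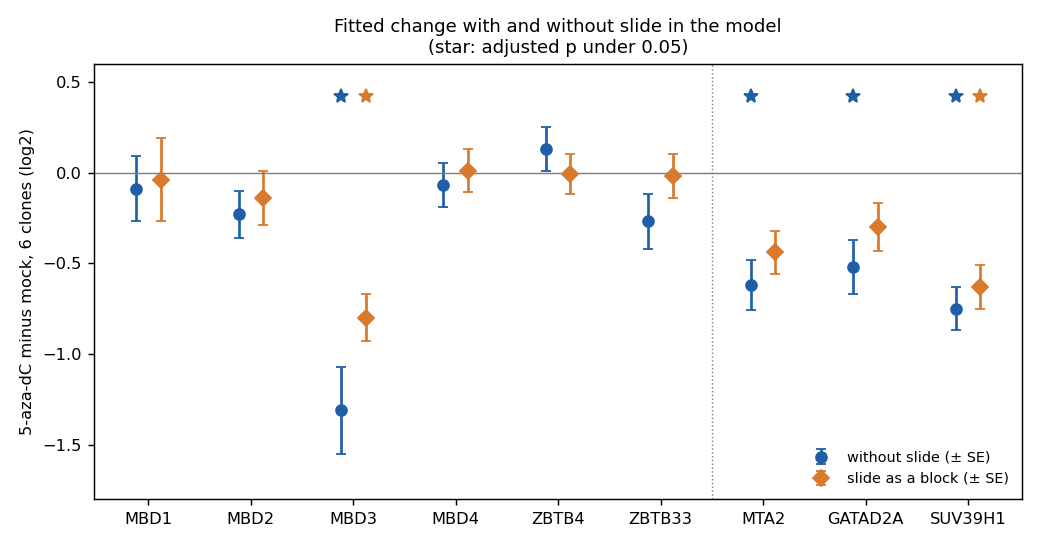
Fitted log2 change after 5-aza-dC over all 6 clones, ± SE, without slide (circles) and with slide as a block (diamonds); a star marks an adjusted p under 0.05. MBD3 and SUV39H1 are called in both fits, while MTA2 and GATAD2A are called without slide and not with it.

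ZBTB4, which binds methylated CpG through its zinc fingers and is a repressor of the CDKN1A gene, was the reader whose values did not overlap between the clone types. Its mock values were 0.61, 0.56 and 0.94 in control clones 1 to 3 and 0.38, 0.15 and 0.54 in knockdown clones 1 to 3. After 5-aza-dC they were 0.90, 0.90 and 0.83 in control clones and 0.38, 0.56 and 0.36 in knockdown clones. Every knockdown value lay below every control value under the same treatment. The difference was -0.35 (SE 0.21), or 78.5% of control, in mock clones (limma, adjusted p = 0.537) and -0.44 (SE 0.18), or 73.7%, in treated clones (limma, adjusted p = 0.258). Neither was called, and the exact permutation p was 0.1, the smallest possible, in both. The 2 comparisons use the same 6 clones and are not independent.

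Groups without overlap were common in these comparisons. They made up 21.3% of all probes in mock clones and 24.9% in treated clones, and 1 of the 6 readers, ZBTB4, in each, a share of the readers below that of all probes. Calls were rare, at 0.137% of 24753 probes and 0.0960% of 24998 probes, and no reader was among them. An unadjusted p under 0.05 (limma) was found for 0 readers in mock clones and 1 of 6, ZBTB4, in treated clones. Among all probes it was found for 2763 of 24753 in mock and 4813 of 24998 in treated clones. On slide 1 the mock difference for ZBTB4 was -0.23, and on slide 2 the treated difference was -0.31. Without knockdown clone 2, whose treated array was the only knockdown array on slide 2, ZBTB4 (-0.50; limma, adjusted p = 0.0485) and MBD3 (0.67; limma, adjusted p = 0.0299) were called, as were 31.4% of all probes. In that fit clone type and slide cannot be told apart.

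The other readers overlapped between the clone types under both treatments. MBD3 differed by 0.10 (SE 0.35) in mock and by 0.35 (SE 0.31) in treated clones, and both values turned negative, to -0.27 and -0.28, with slide as a block. MBD1 differed by -0.08 (SE 0.27) and -0.34 (SE 0.25), MBD2 by 0.13 (SE 0.18) and -0.05 (SE 0.23), MBD4 by -0.09 (SE 0.17) and -0.17 (SE 0.20), and ZBTB33 by 0.17 (SE 0.19) and 0.17 (SE 0.25). None of these was called.

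The second MBD2 probe, for transcript variant 2, behaved unlike the first. It was well above background on mock control clone 2, on mock knockdown clones 1 and 3, and on all 3 treated knockdown clones, and on none of the 3 treated control clones. Its treated values were -3.24, -3.17 and -2.95 in knockdown clones 1 to 3 against -4.23, -4.14 and -4.98 in control clones. They did not overlap, as was the case for 24.9% of all probes in that comparison. The signal was at least 1.66-fold higher in treated knockdown than in treated control clones, as the control level is only a bound. The difference was not called. The probe passed the filter for that fit only through the 3 treated knockdown arrays, so neither the test nor the lack of overlap can be read as support. In mock clones the values were -2.86, -4.85 and -2.81 in knockdown clones against -4.49, -3.99 and -3.86 in control clones, and they overlapped. Treated knockdown clone 2, on the same slide as the treated control clones, had -3.17. The brighter MBD2 probe differed by -0.05 in the same treated clones.

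The MBD1 probes, which cover different parts of a gene with many splice forms, agreed in finding no called change. The second probe, at chr18:47799048-47799107, differed by -0.16 (SE 0.17) between treatments over all clones. The third, which the files place over chr18:47802749-47803051, a span of 303 bases for a 60-base probe, differed by -0.41 (SE 0.17; limma, adjusted p = 0.135) and was lower in all 6 clones. The fourth was above background on 6 of 12 arrays. The brightest MBD1 probe was lower in 4 of 6 clones.

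**Figure D4:**
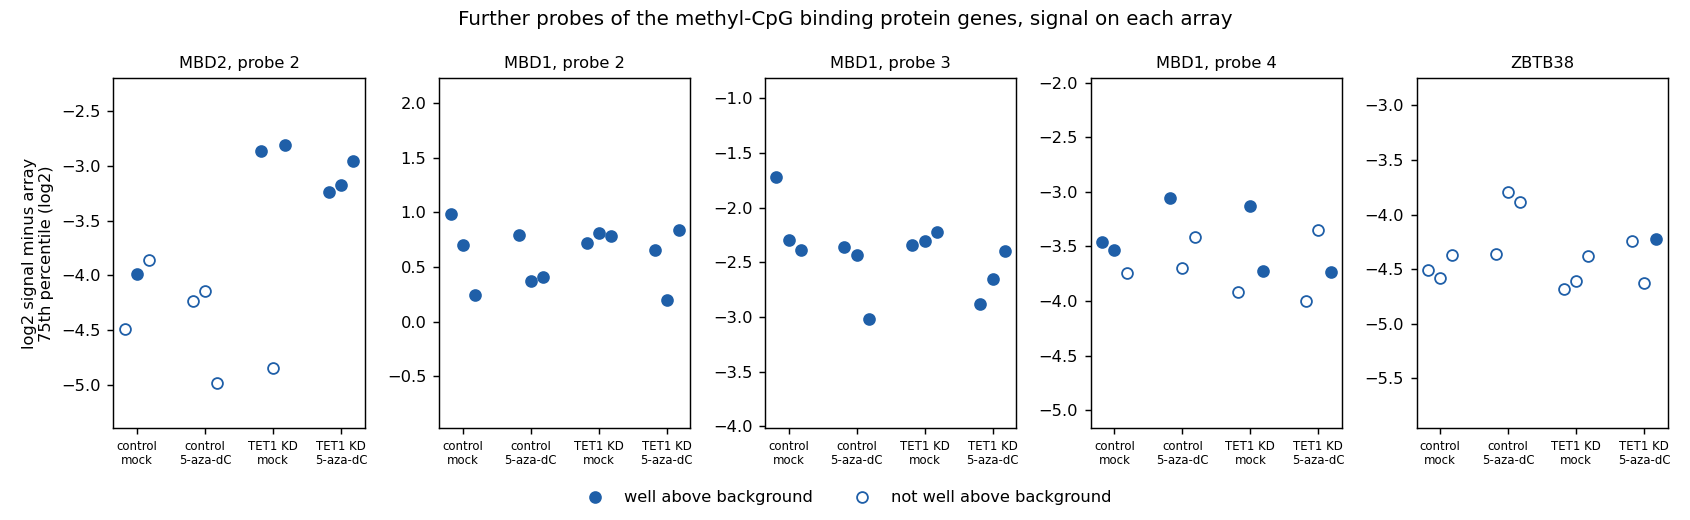
Log2 signal, relative to the array's 75th percentile, of the further probes of MBD2 and MBD1 and of ZBTB38 on each array; filled points are well above background and open points are not. Each panel spans 3.2 log2 units. MBD2 probe 2 is above background in all 3 treated knockdown clones and in no treated control clone, and ZBTB38 on 1 array of 12.

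ZBTB38 stayed near background throughout. Its values ran from -4.68 to -4.37 on the 6 mock arrays and from -4.63 to -3.79 on the 6 treated arrays. The array where it was above background had -4.22, and treated control clones 2 and 3, at -3.79 and -3.89, were not above background by the scanner software's call. Values this close to background have no order, and no fold is given.

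The partners of the readers were taken from a list of known complex members. All 12 NuRD genes were tested, and 0 were called in either comparison of clone types or within either clone type. Over all clones 2 of 12 were called after 5-aza-dC, MTA2 and GATAD2A, both lower, against the 13.2% of all probes. The median NuRD change was -0.04 beside -0.05 for all probes. MTA2 is a scaffold of the deacetylase core, and GATAD2A links MBD2 or MBD3 to the CHD remodeller. MTA2 fell by 0.62 (SE 0.14, limma, adjusted p = 0.0158) and GATAD2A fell by 0.52 (SE 0.15, limma, adjusted p = 0.0472). Each was lower in 6 of 6 clones, as were 17.0% of all probes tested. With slide as a block they were -0.44 (limma, adjusted p = 0.0589) and -0.30 (limma, adjusted p = 0.193), and neither call held. Without 1 clone the MTA2 call was lost for control clones 1 and 2 and for knockdown clones 1 and 2, with adjusted p (limma) between 0.0514 and 0.096 there. The GATAD2A call was lost for each of the 6 clones left out, and a second GATAD2A probe was lower in 5 of 6 clones. The other 10 NuRD genes, among them MTA3, CHD4, HDAC1, HDAC2 and RBBP4, were not called. MTA3 was also lower in 6 of 6 clones, with changes of -0.80 to -0.01.

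Among 8 partners of the other readers, SUV39H1, the H3K9 methyltransferase that MBD1 can bring in, was the single gene called over all clones. That is 1 of 8, where 13.2% of all probes tested were called. By their brightest probes 6 of the 8 were on the higher side, with a median of 0.09. SUV39H1 was 1.48, 1.48 and 1.41 in mock control clones 1 to 3 and 0.72, 0.83 and 0.76 after treatment. In knockdown clones 1 to 3 it was 1.67, 1.50 and 1.36 and then 0.96, 0.42 and 0.71. The groups did not overlap in either clone type, as was the case for 32.4% of all probes in control and 19.2% in knockdown clones. The clones with both arrays on 1 slide changed by -0.71 to -0.64, and those with arrays on different slides by -1.08 to -0.66. Over all clones SUV39H1 fell by 0.75 (SE 0.12), to 59.4% of mock (limma, adjusted p = 0.00324), and by 0.63 with slide as a block (limma, adjusted p = 0.0138). In control clones alone it fell by 0.69 (limma, adjusted p = 0.0493), a call that was lost without control clone 1 or 2, with slide as a block and with clone as a block (limma, adjusted p = 0.0859), while in knockdown clones it was -0.81 (limma, adjusted p = 0.253). A second SUV39H1 probe was also lower in 6 of 6 clones, as were 17.0% of all probes tested. It changed by -0.68 to -0.48 in the clones on 1 slide and by -1.74 to -0.85 in those on different slides, without overlap. The other partners, among them ATF7IP, SETDB1, CHAF1A, CTNND1, NCOR1 and SIN3A, were not called by their brightest probes. Their dimmer probes did not all go the same way. One NCOR1 probe was lower in 6 of 6 clones (-0.98 to -0.35), as was one of SETDB1 (-0.66 to -0.01) and one of CHAF1A (-0.86 to -0.05). Another NCOR1 probe was lower in 2 clones and higher in 4, and another SETDB1 probe lower in 1 and higher in 4.

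Of 7 further genes of the MBD family, MBD5, MBD6, SETDB2, BAZ2A and BAZ2B were tested and none was called, with a median change over all clones of -0.30 beside -0.05 for all probes. MBD3L1 and MBD3L2, which resemble MBD3 but lack the binding domain, were not tested. BAZ2B, a bromodomain protein, came closest, with -0.45 after treatment over all clones (SE 0.13; limma, adjusted p = 0.0512). BAZ2B changed by -0.31 to -0.13 in the clones with both arrays on 1 slide and by -0.91 to -0.44 in those on different slides, without overlap. MBD5 differed by -0.86 in control clones (SE 0.19; limma, adjusted p = 0.0615) and by 0.18 in knockdown clones (SE 0.35), and the interaction was not called (limma, adjusted p = 1). Of 5 genes known as targets of single readers, 3 were tested, GSTP1, WNT11 and MCM10. All 3 were on the higher side after 5-aza-dC, with changes over all clones from 0.25 to 0.47 and a median of 0.33, and none was called. The higher side did not hold within slides for each of them: MCM10 was at -0.17 in control clones on slide 2 and -0.03 in knockdown clones on slide 1, and WNT11 at -0.17 and 0.10. MCM10 changed by -0.28 to 0.05 in the clones with both arrays on 1 slide and by 0.58 to 1.10 in those on different slides, and WNT11 by -0.18 to 0.49 and by 0.52 to 1.11. MMP7 and CDKN1A were too close to background to be tested.

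The genes whose pattern over the 12 arrays was most like that of MBD3, among 10693 genes above background on all arrays, were CNOT2 (Pearson r 0.984), MARK2 (0.982) and TMEM160 (0.982). After the mean of each slide was taken out, r was 0.957, 0.941 and 0.941. For ZBTB4 they were ACOT1 (0.974), RNF213 (0.968) and MUS81 (0.956), and for ZBTB33 TBC1D9 (0.970), AKAP10 (0.951) and AFF1 (0.950). With slide means taken out, r was 0.924, 0.907 and 0.867 for ZBTB4 and 0.886, 0.742 and 0.799 for ZBTB33. MBD2 was most like NSMAF (0.952), MBD4 like KCNJ8 (0.934) and MBD1 like ANKRD44 (0.849). Among the readers themselves, MBD3 and ZBTB33 had the highest correlation, with r = 0.84 over the 12 arrays and 0.37 after the slide means were taken out. Within slides the highest was that of MBD2 and MBD4, at 0.73, with 0.69 over the 12 arrays. The 12 arrays share clones, treatments and slides, and these values are descriptions.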

How the data were processed

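Total RNA was labelled with Cy3 by the authors and hybridised to Agilent SurePrint G3 Human GE arrays, 1 array per sample, with 62976 spots. The deposited scanner files, written by Feature Extraction 10.7.3.1 per the file headers and 10.7 per the submitters' processing notes, hold for each spot a processed signal, an intensity that the software had corrected for background. The series table the authors deposited repeats this intensity and differed from the scanner files by at most 0.497%.

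Control spots (4259) and outlier spots (268 to 395 per array) were left out, and no spot was saturated. Log2 signals of a probe's spots were averaged and centred on the array's 75th percentile, which sets equal the upper quartile of each array and so cannot show a change common to most probes. A probe was tested where it was well above background on at least 3 arrays of a fit. Moderated two-sided tests from limma 3.58.1 (R 4.3.3; lmFit, then eBayes) were fitted to the arrays of the 2 groups, or to all 12 arrays for the change over all clones and the interaction. P-values were adjusted by Benjamini-Hochberg across every probe in a fit, and 0.05 was the threshold. Exact permutation tests over clones were two-sided. The fitting steps were run on simulated arrays with independent noise and no effect of slide or clone. That run cannot show how slide or clone bears on the results. Figures were drawn with matplotlib 3.10.9.

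The genes and lists were chosen with earlier results of these data known. All probes of the 7 genes were named, with the 3 genes most correlated with each over 12 arrays, the TET1 probes and the listed partners, of which 1 is counted but not reported by name here. Groups came from the labels, which give 3 clones per group; p-values measure the spread between clones. Mock and treated arrays of 1 clone deviated together, with correlations from 0.218 to 0.365 in control and 0.427 to 0.614 in knockdown clones, so the number pairs them. Control and knockdown clones of 1 number are different clones. Alternatives were quantile normalisation, normexp with offset 50, the median as scale, the series table, filters on dim probes, outlier spots, the mean of a gene's probes, blocks of slide and clone, a fit over all arrays, the methods' t-test and each clone left out. The slide is the one recorded in the scanner files.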

Additional observations from a re-analysis of the deposited data

How the results depend on the processing

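The number of arrays, 3 clones per group on 2 slides, limits every comparison. With clone as a block (the pairing of mock and treated arrays) the MBD3 change over all clones was -1.31 (limma, adjusted p = 0.0207), with clone and slide as blocks it was -0.70 (limma, adjusted p = 0.0336), and the replicate block changed no reader's call. Of the SUV39H1, MTA2 and GATAD2A calls over all clones it changed none. The share of all probes called, over every alternative, ranged from 5.27% to 31.3% over all clones (13.2% as reported), from 0% to 22.8% within control clones (5.22%), from 0% to 3.09% within knockdown clones (2.04%), from 0.0162% to 0.421% between mock clone types (0.137%), from 0% to 31.4% between treated ones (0.0960%) and from 0.00373% to 0.0513% in the interaction (0.0366%). The methods' t-test, run within pairs of groups, called 0 readers in each of the 4 and 4, 3, 358 and 211 probes after Benjamini-Hochberg, against 34, 24, 1286 and 519 by limma. On the median scale the share of calls that were higher within control clones went from 73.7% to 35.0%. Where a result changed below, the cause was not tested. No reader was called after 5-aza-dC within control clones, but 1 was with the median as scale, 1 with all 12 arrays in the fit and 1 with slide added to that fit. Within knockdown clones 0 were called, and 1 with all 12 arrays and slide. Over all clones 1 was called, and 3 with the median as scale, where 31.3% of all probes were called. With 1 clone left out, the readers called ranged from 0 to 2 between treated clone types, from 0 to 1 within control clones and, in the fit that used both clone types, from 0 to 1. Of the MBD domain list, with 0 called as reported, up to 1 was called over all clones (in 6 of 16 alternatives) and up to 2 within control clones (in 3 of 16). NuRD genes called ranged from 0 to 4 over all clones and from 0 to 3 within control clones, partners from 1 to 2 and from 0 to 2, and targets from 0 to 1 in both. Between treated clone types, without knockdown clone 2, 2 MBD domain genes, 5 NuRD genes, 3 partners and 1 target were called.

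The remaining changes of direction were of values not called. Between clone types in mock cells, MBD3 turned to -0.27 with slide as a block and -0.24 with all arrays and slide, where ZBTB33 was 0.00. In treated cells MBD2 turned to 0.06 after quantile normalisation and 0.09 after normexp, MBD3 to -0.28 and ZBTB33 to -0.27 with slide, and to -0.33 and -0.17 with all arrays and slide. After 5-aza-dC in control clones, MBD1 turned to -0.03 after normexp and -0.18 on the median scale, and ZBTB4 to -0.04 on the median scale, -0.06 with slide, -0.11 with clone and slide and -0.01 with all arrays and slide. There ZBTB33 turned to 0.12 with clone and slide and 0.07 with all arrays and slide, as did MBD4 (0.07). In knockdown clones ZBTB4 turned to -0.18 on the median scale, -0.09 with clone and slide and -0.01 with all arrays and slide. Over all clones ZBTB4 turned to -0.11 on the median scale, -0.01 with slide and -0.10 with clone and slide, MBD4 to 0.01 with slide, and MBD1 to 0.07 and ZBTB33 to 0.07 with clone and slide. In the interaction ZBTB33, near 0, was 0.09 after quantile normalisation, 0.09 after normexp and 0.00 with outlier spots kept, MBD3 turned to -0.08 with slide and -0.15 with clone and slide, and ZBTB4 to 0.06 with clone and slide. With 1 clone left out, MBD1 ranged from -0.29 to 0.07 and MBD3 from -0.27 to 0.32 between mock clone types, and MBD2 from -0.20 to 0.13 between treated ones. After 5-aza-dC, MBD1 ranged from -0.08 to 0.19 and MBD4 from -0.08 to 0.01 in control clones, and ZBTB4 from -0.09 to 0.21 in knockdown clones. The interaction ranged from -0.16 to 0.25 for ZBTB33, -0.13 to 0.01 for MBD4, -0.02 to 0.70 for MBD3 and -0.26 to 0.03 for ZBTB4.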

Other observations

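A pair of listed genes that lay near background elsewhere were bright on the same single array, and are named here after their values were seen. MBD3L2, a relative of MBD3 without the methyl-CpG binding domain, was well above background on treated control clone 1, at -0.98, and was between -6.53 and -5.27 on the other arrays, where it was not well above background. CDKN1A, the p21 cell cycle inhibitor, was well above background on that same array, at -1.0, and was between -6.24 and -4.55 on the others, where it was not well above background. Neither was tested, and the other treated control clones did not show these levels.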
